A study of Mus musculus with 4 samples.

Results

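The liver response to bacterial endotoxin was described from the deposited comparison of LPS-treated with untreated WT mice, taken as a whole. Every gene in that comparison was kept, 2844 of the 3111 different gene symbols that the 4 comparisons of the series list together, and the genes were ordered by what they are known to do. Each side was 1 library. The methods describe male C57BL/6 mice, 16 to 20 weeks old, that received 40 mg per kg of LPS from *Escherichia coli* in PBS, or PBS alone, by intraperitoneal injection, with the liver taken 24 h later. Neither group carried a transgene or a deletion, and both were the WT arm of a study of mice that lack cyclophilin D (CypD), a mitochondrial matrix protein. By the methods, each library was an equimolar pool of liver RNA (RNA integrity number above 8.5) from 3 biological replicates, but an n of 5 stands in the figure legends of the sequencing data. Pooling leaves no spread between mice, so the folds below have no error, and a q-value compares the reads of these 2 libraries and not the treatments.

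For each gene the table gives the fold, with a sign for its direction, and a q-value (a p-value corrected for the number of genes tested), and it keeps only genes that passed 1.5-fold and 0.05 in Kal's test, which compares a gene's share of the reads between 2 libraries. The words rose and fell are used only for genes listed there. Genes outside the table have no value here. Levels and read counts were not used here, so the depth behind a fold is unknown and the labelled tissue could not be checked against the levels of its markers. *Alb*, the gene of serum albumin, is not listed. Fewer cells of a type and less RNA per cell cannot be told apart in pooled tissue. The Y-linked genes, *Eif2s3y* (24.9-fold), *Ddx3y* (14.4-fold) and *Uty* (13.6-fold), were lower after LPS although all mice are described as male, and *Xist* is not listed. These Y-linked genes are not listed in the LPS comparison of CypD-/- mice. Genes that male livers express more fell in 32 of 43 cases (74.4%, median fall 7.78-fold) and rose in 2. Genes that female livers express more fell in 19 of 40 (47.5%, median fall 4.0-fold) and rose in 2. Falls outnumbered rises in both kinds, and male-predominant genes fell more often and further.

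As background, LPS is bound by LBP and CD14 and passed to Toll-like receptor 4 on Kupffer cells, endothelium and hepatocytes. NF-kB and interferon regulatory factors then switch on cytokines, and IL-6, IL-1 and interferons act back on hepatocytes through STAT and NF-kB factors. Hepatocytes answer with the acute phase response, in which secretion shifts to defence proteins while much of the metabolic and detoxifying work of the liver is turned down. The question put to the data was which of these programmes was higher and which was lower 24 h after LPS.

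Of the 2844 listed genes, 910 (32.0%) were higher and 1934 (68.0%) were lower after LPS. The annotation of RefSeq holds 21900 protein-coding genes, of which 12.8% are listed, 4.1% as higher and 8.72% as lower. The set of genes that the authors tested is not given, so these shares serve only as a yardstick for the counts per gene group below. The median rise was 3.62-fold (quartiles 2.41 and 7.52) and the median fall 3.79-fold (quartiles 2.54 and 6.19). The extremes were on the side of the rises. A rise of 32-fold or more was found in 64 genes and a fall of that size in 7, although 910 genes fell at least 4-fold against 410 that rose so far. Small folds carried weaker q-values: 34.7% of the rises under 2-fold had a q-value above 0.01, against 10.9% of those of 32-fold or more.

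**Figure D1:**
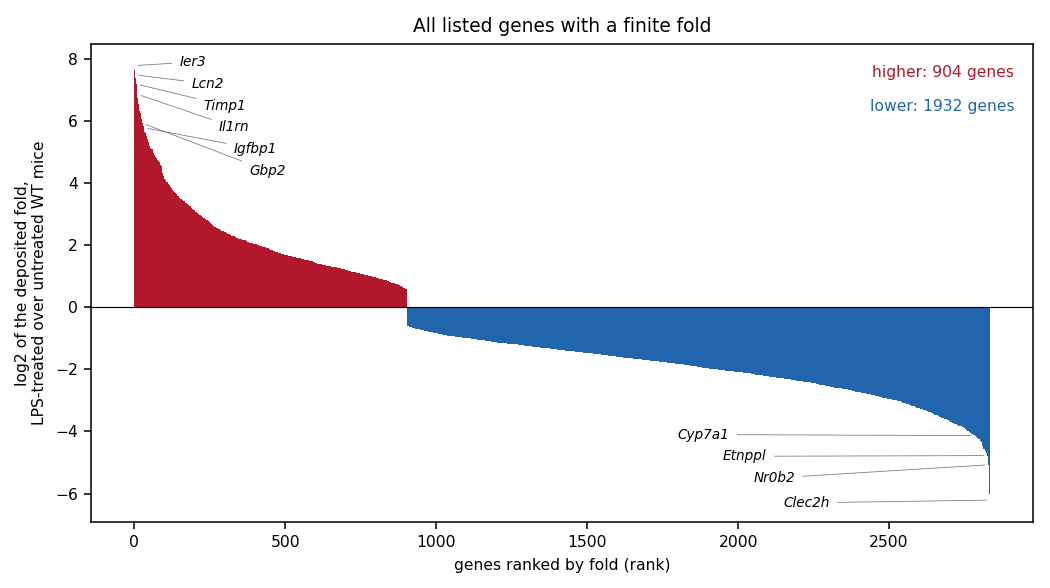
Each bar is 1 gene with a finite fold, ranked from the largest rise to the largest fall, with the log2 of the deposited fold (LPS-treated over untreated WT mice) on the vertical axis. The 904 rises reach further from 0 than the 1932 falls, and the falls are more numerous.

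A set of 83 gene lists (pathways, complexes, families and cell type markers) was counted against the table. Members fell more often than they rose in 51 lists, rose more often in 29, and were equal in 3. In 14 lists there were falls and no rise, and in 3 lists rises and no fall. The lists held 1283 of the listed genes, and 1560 listed genes were in no list, with *Ctage5* and *Mia2*, older and current symbols of the same gene, counted once. The immediate early gene *Ier3* had the largest finite rise (221-fold, q = 2.96e-06), followed by *Slc10a6*, a carrier of sulfated steroids (198-fold), *Cxcl5*, a chemokine for neutrophils (197-fold), and *Lcn2*, the siderophore-binding lipocalin (179-fold). *Csf3*, the granulocyte growth factor, rose 157-fold and *Il1rn*, the interleukin 1 receptor antagonist, 116-fold. The largest falls included genes of nutrient and steroid handling. *Etnppl*, which breaks down phosphoethanolamine, fell 27.4-fold, *Srd5a1*, a steroid reductase, 23.2-fold, and *Chdh*, which oxidizes choline, 22.3-fold.

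**Figure D2:**
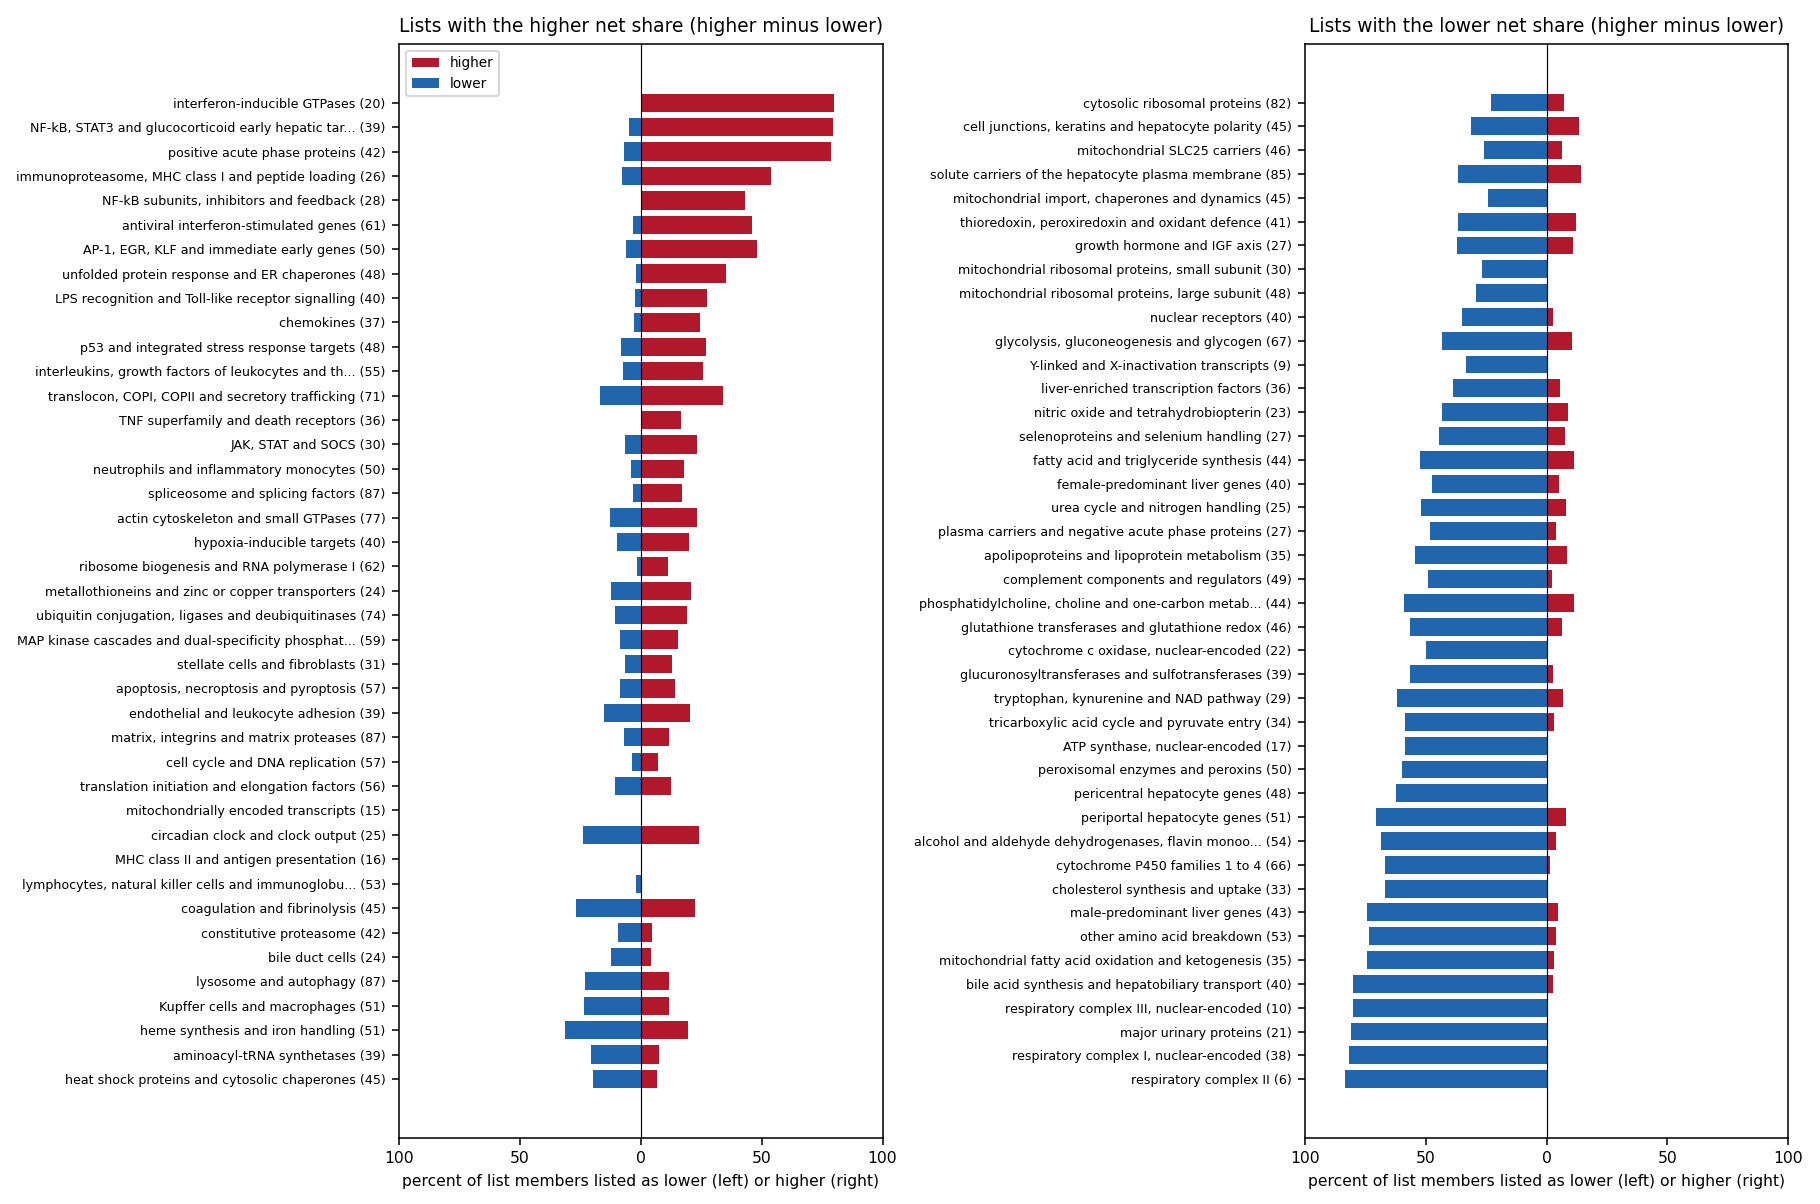
For each of the 83 lists, with the number of members found in the reference in brackets, the bars give the percent of members listed as lower (left) or higher (right) after LPS. Lists are ordered by the percent higher minus the percent lower. Interferon-inducible GTPases, acute phase proteins and early hepatic targets lie at the top of the left panel, and respiratory complexes, bile acid genes and amino acid breakdown at the bottom of the right panel.

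Promoters were read for genes that moved together. RefSeq promoters (GRCm38.p6, 250 bases before to 50 after a start) were found for 718 of the 910 genes that rose and for 1543 of 1933 genes that fell (with *Ctage5* and *Mia2* counted once), and for 27025 genes in all. Windows of 100 bases before the start are shown to place the motifs whose shares differed between rises and falls. They are written 5′ to 3′ along the gene, with the bases matched on either strand in capitals. Each is from the gene with the largest fold among those with 1 RefSeq promoter and the motif before its start, within the gene group named or, for NF-kB and HNF4, among all genes of that direction. For the 10-base NF-kB consensus this was *Ier3* (chr17:35821576-35821675, plus strand), for the STAT motif TTCNNNGAA *Steap4*, an iron reductase among the acute phase genes that rose 34.4-fold (chr5:7960310-7960409, plus strand), and for the IRF motif TTCNNTTTC *Gbp2*, an interferon-inducible GTPase (chr3:142620559-142620658, plus strand). On the side of the falls, the NRF1 motif GCGCNTGCG is shown in *Ndufb10*, a subunit of respiratory complex I that fell 3.52-fold (chr17:24724424-24724523, minus strand), and *Mrpl12*, a protein of the mitochondrial ribosome (chr11:120484510-120484609, plus strand), and the HNF4 motif CAAAGTCCA in *Aspdh*, an enzyme of the NAD pathway that fell 6.65-fold (chr7:44465335-44465434, plus strand).
Ier3: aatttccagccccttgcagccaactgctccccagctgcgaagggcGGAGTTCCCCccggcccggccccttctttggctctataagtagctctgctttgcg
Steap4: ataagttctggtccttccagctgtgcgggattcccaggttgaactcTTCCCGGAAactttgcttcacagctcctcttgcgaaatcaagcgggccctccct
Gbp2: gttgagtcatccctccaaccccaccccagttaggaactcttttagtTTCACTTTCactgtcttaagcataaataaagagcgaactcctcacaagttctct
Ndufb10: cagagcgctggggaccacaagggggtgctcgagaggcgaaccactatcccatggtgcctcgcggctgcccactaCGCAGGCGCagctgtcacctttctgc
Mrpl12: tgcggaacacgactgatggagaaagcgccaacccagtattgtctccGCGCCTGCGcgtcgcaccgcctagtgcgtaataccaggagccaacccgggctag
Aspdh: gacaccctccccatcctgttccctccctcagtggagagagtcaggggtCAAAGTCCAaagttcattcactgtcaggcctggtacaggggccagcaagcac

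Motifs were counted on both strands, with 19 motifs searched, and a gene with several promoters was counted if any of them matched. The NF-kB consensus was found in 17.1% of the genes that rose, 10.2% of those that fell and 9.55% of all genes. Rises were above falls also for the IRF motif (12.8%, 7.0% and 9.76%), the STAT motif (12%, 7.84% and 9.55%) and the AP-1 motif TGANTCA (11.3%, 7.84% and 8.97%), and in these 3 the genes that fell lay below all genes. The NRF1 motif had the opposite order and was found in 9.61% of the genes that rose, 14.2% of those that fell and 7.12% of all genes. The HNF4 motif was rare, in 0.557%, 1.56% and 0.555%. The C/EBP motif TTGCNNAA differed little, with 12.1%, 13.3% and 12.2%. Within lists, the IRF motif was present in 9 of 10 interferon-inducible GTPases with a promoter and in 24 of 48 antiviral genes, the NF-kB consensus in 11 of 24 NF-kB subunits and inhibitors, and the C/EBP motif in 16 of 31 acute phase genes. Among nuclear-encoded genes of oxidative phosphorylation the NRF1 motif was present in 26 of 78. Other pairs of list and motif had smaller shares. The STAT motif was present in 9 of 31 acute phase genes and the NF-kB consensus in 8 of 27 chemokines. The SREBP motif TCACNCCAC was present in 1 of 23 genes of cholesterol synthesis and uptake. Promoters of both directions were richer in G and C (medians 61.3% for rises and 58.7% for falls) than all promoters (52.8%), which bears on motifs made of these bases. A match is a string of letters and was not tested as a binding site.

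**Figure D3:**
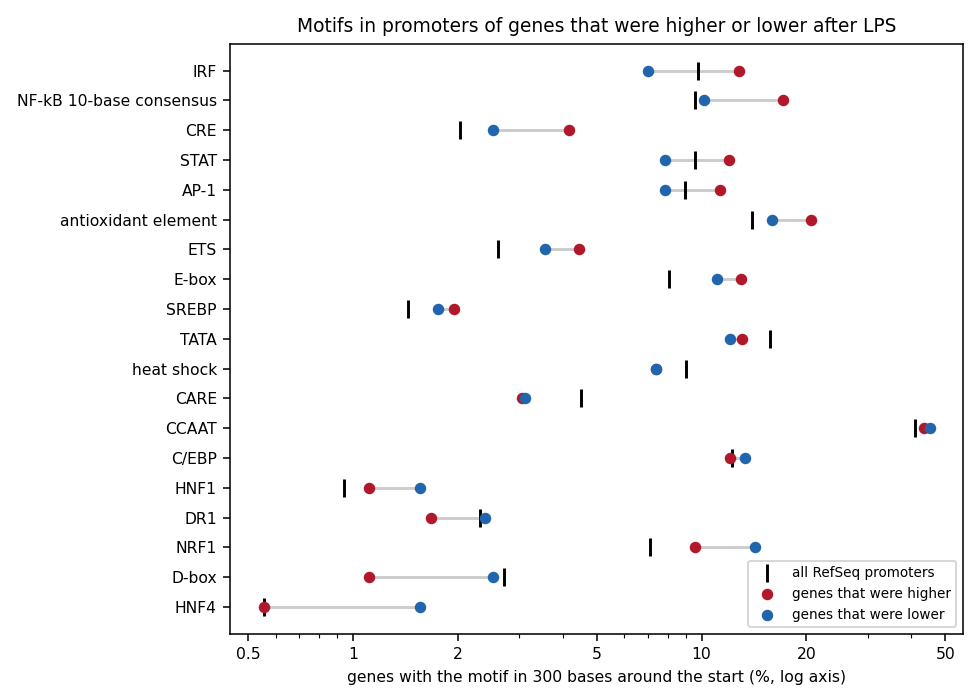
The share of genes with each motif (percent, log axis) is shown for genes that rose (red), genes that fell (blue) and all genes with a RefSeq promoter (black tick). The IRF, NF-kB and STAT motifs lie further right for rises, and the NRF1 and HNF4 motifs further right for falls.

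Sensing of LPS and its brakes rose together. In the list of LPS recognition and Toll-like receptor signalling 11 of 40 members rose and 1 fell. Besides *Cd14* (135-fold), the largest rise was that of *Irak3* (49-fold), which blocks the signal below the receptor, and *Sigirr*, another inhibitor of these receptors, was the member that fell (6.11-fold). Adaptors and kinases rose less, with *Myd88* at 4.50-fold and *Irak2* at 4.49-fold. Of 28 NF-kB subunits and regulators 12 rose and none fell. Feedback inhibitors were among them: *Tnfaip3*, the deubiquitinase A20, rose 23.4-fold, *Zc3h12a*, which degrades cytokine mRNA, 18.3-fold, and *Tnip2* 8.39-fold. Of the subunits, *Relb* rose 9.64-fold, *Rela* 3.18-fold and *Nfkb1* 2.41-fold. *Socs3*, the feedback inhibitor of IL-6 signalling, rose 15.3-fold and *Stat3* 5.70-fold, whereas *Stat5b*, which carries growth hormone signals, fell 4.92-fold and *Stat6* 3.83-fold.

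Cytokine receptors moved in both directions. *Il1r1* rose 19.8-fold, *Osmr*, the oncostatin M receptor, 14.6-fold and *Il22ra1* 7.36-fold. *Il17rb* fell 13.7-fold, *Csf1r*, the macrophage growth factor receptor, 7.52-fold and *Lifr* 6.22-fold. *Il33*, an alarmin released by damaged cells, rose 35.8-fold. Of 36 ligands and receptors of the TNF family 6 rose, all of them receptors, and none fell. *Tnfrsf9* (91.8-fold, q = 0.0113) and *Tnfrsf23* (67.2-fold) led these rises. *Tnf*, *Il6* and *Il1b*, cytokines of the early response, are not listed at 24 h.

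Interferon-inducible genes rose in most listed cases. Of 20 interferon-inducible GTPases, which attack the vacuoles of intracellular microbes, 16 rose and none fell, with a median of 18.9-fold. *Gbp2* rose 61.0-fold, *Gbp3* 50.5-fold and *Gbp5* 39.3-fold, and *Irgm2* was the lowest at 1.90-fold. Of 61 antiviral genes 28 rose (median 9.08-fold) and 2 fell, and both falls were interferon regulatory factors, *Irf3* (6.41-fold) and *Irf2* (4.32-fold). The class I pathway of antigen presentation rose in 14 of 26 members, with *H2-Q4* at 14.7-fold, the peptide transporter *Tap1* at 7.04-fold and the immunoproteasome subunit *Psmb8* at 3.01-fold. *H2-Q10*, a class I molecule that hepatocytes secrete, fell 2.40-fold. None of 16 genes of class II presentation is listed. Members of the GTPase family are similar in sequence and the mapping allowed reads with up to 10 matches, so single folds within it are less certain than their shared direction.

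Secreted proteins split by function. Of 42 positive acute phase proteins 33 rose (median 11-fold). The falls were *Vnn1*, a pantetheinase (5.36-fold), *Crp*, which is a minor acute phase protein in mice (2.29-fold), and *Saa4*, the constitutive serum amyloid (1.6-fold). Complement went the other way. Of 49 complement genes 24 fell and *Vtn*, the gene of vitronectin, was the only rise (1.54-fold). The falls reached the terminal components *C6* (11.8-fold), *C9* (4.72-fold) and *C8a* (4.54-fold), and *C4a* (5.29-fold), the lectin *Colec11* (4.84-fold) and *C1qc* (4.88-fold), which macrophages make.

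Coagulation moved in both directions, with 10 rises and 12 falls among 45 genes. The rises were the fibrinogen chains *Fgg* (7.96-fold), *Fgb* (7.85-fold) and *Fga* (7.27-fold), *Cpb2*, an inhibitor of fibrinolysis (2.53-fold), the urokinase receptor *Plaur* (34.0-fold) and *Thbd*, thrombomodulin (7.08-fold). Falls were found among the clotting factors *F7* (2.93-fold), *F5* (2.52-fold), *F10* (2.0-fold), *F2* (1.70-fold) and *F9* (1.67-fold), and the anticoagulants *Proz* (5.72-fold), *Proc* (2.72-fold) and *Serpinc1*, antithrombin (1.97-fold). *Klkb1*, prekallikrein, fell most (13.4-fold), and the vitamin K enzymes *Vkorc1* (5.16-fold) and *Ggcx* (2.0-fold) fell too. Apolipoproteins and lipoprotein genes fell in 19 of 35 cases, with *Angptl8* at 11.2-fold and *Apoc4* at 4.01-fold. *Angptl4*, an inhibitor of lipoprotein lipase, rose 5.40-fold, the cholesterol exporter *Abca1* 4.17-fold and *Apoa4* 3.48-fold.

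Genes of the respiratory chain fell without a listed rise. Of 93 nuclear-encoded genes of oxidative phosphorylation 65 fell, by 1.53-fold to 4.96-fold with a median of 2.27-fold, and none rose. Of complex I 31 of 38 members were lower, against 5 of 6 for complex II, 8 of 10 for complex III, 11 of 22 for cytochrome c oxidase and 10 of 17 for ATP synthase. *Ndufa6* (4.06-fold), *Ndufa13* (3.94-fold) and *Ndufs7* (3.81-fold) led complex I. Assembly factors had the largest falls of 2 other complexes, *Sdhaf1* (4.96-fold) for complex II and *Surf1* (4.57-fold) for cytochrome c oxidase, and *Atp5d* (3.71-fold) that of ATP synthase. No transcript of the mitochondrial genome is listed. The study, however, describes lower expression of respiratory genes encoded in mitochondrial DNA in WT mice after LPS. Their absence here is therefore no sign that they did not change. Mitochondrial ribosomal proteins fell in 22 of 78 cases, without a rise, up to *Mrpl14* (12.3-fold) and *Mrpl34* (9.66-fold).

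The direction of listed genes varied with transcript length, and in opposite ways in the 2 LPS comparisons of the series. In GENCODE M21 the median transcript is 1026 bases for complex I genes, 1151 for cytochrome c oxidase, 1442 for complex III, 1697 for ATP synthase, 2695 for complex II and 2882 for all protein-coding genes. Among listed genes with transcripts under 1000 bases 81.3% fell in WT mice, and the share went down over longer classes to 60.8% at 4000 bases or more. Within CypD-/- mice, compared in libraries that share none with the WT pair, the order was the reverse, from 54.3% to 78.2%. The median transcript was 3118 bases for genes that rose and 2608 bases for genes that fell in WT mice. Among genes that both comparisons list in the same direction it was 2484 bases for rises and 2957 bases for falls. Within CypD-/- mice 19 of the 93 genes of oxidative phosphorylation were listed as lower and 1 as higher, and 1 of the 78 mitochondrial ribosomal proteins as lower. That comparison lists 1446 genes in all, against 2844 in WT mice, which bears on these counts and on those for CypD-/- mice below. The part of transcript length in the mitochondrial falls was not tested.

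**Figure D4:**
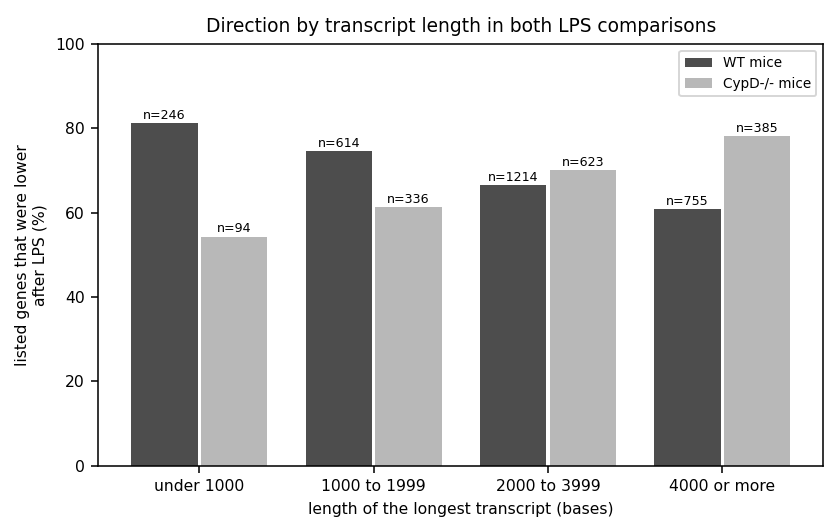
The bars give the percent of listed genes that were lower after LPS, by the length of the longest transcript, in WT (dark) and CypD-/- mice (light), with the number of listed genes above each bar. The share goes down with length in WT mice, from 81.3% to 60.8%, and up in CypD-/- mice, from 54.3% to 78.2%.

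The machinery that makes and exports proteins gave a mixed picture. Chaperones and sensors of the unfolded protein response rose in 17 of 48 cases, with *Creld2* at 9.96-fold, the ER chaperone *Hspa5* at 9.68-fold and *Manf* at 7.51-fold, and *Canx*, calnexin, was the only fall (1.98-fold). Translocon and vesicle coat genes rose in 24 of 71 cases and fell in 12, with *Sec61g* (4.23-fold), a subunit of the channel into the ER, the highest. Within CypD-/- mice 3 of these 71 genes were listed as higher and 12 as lower. Splicing factors rose in 15 of 87 cases, at a median of 2.24-fold, and fell in 3, and genes of ribosome biogenesis rose in 7 of 62 cases and fell in 1. Ribosomal proteins, whose transcripts are short, fell in 19 of 82 cases and rose in 6, within 2.74-fold either way. In CypD-/- mice 11 of them were listed as higher and 4 as lower, so their direction was not shared.

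Genes of pyruvate entry moved in both directions and genes of fat oxidation mostly fell. *Pdk4*, the kinase that shuts pyruvate dehydrogenase, rose 167-fold, and its relatives *Pdk2* and *Pdk1* fell 17.2-fold and 4.50-fold. Mitochondrial fatty acid oxidation fell in 26 of 35 cases, with the medium-chain dehydrogenase *Acadm* at 4.23-fold. The only rise was *Acot2*, a thioesterase (3.27-fold). Peroxisomes fell in 30 of 50 cases with no rise, at a median of 4.32-fold: *Abcd2*, an importer of very long fatty acids, fell 18.0-fold, *Uox*, urate oxidase, 12.2-fold and *Cat*, catalase, 10.6-fold. Cholesterol synthesis and uptake fell in 22 of 33 cases with no rise, among them *Mvd* (6.7-fold) and *Idi1* (6.56-fold) of the mevalonate pathway and *Cyp51*, which acts on lanosterol (2.11-fold).

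Of 44 genes of fatty acid and triglyceride synthesis 23 fell and 5 rose, with *Elovl3* (13-fold), the desaturase *Fads2* (12.5-fold) and the lipogenic regulator *Srebf1* (6.58-fold) among the falls. The rises were *Cidec* (26.0-fold) and *Plin2* (3.42-fold), which coat lipid droplets as do *Plin5* and *Cideb*, which fell 2.30-fold and 4.71-fold, the fatty acid-binding proteins *Fabp4* (5.09-fold) and *Fabp5* (3.16-fold), and the lipase *Pnpla2* (4.2-fold).

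Glucose genes mostly fell as well, in 29 of 67 cases against 7 rises. The glucose transporter *Slc2a2* fell 12.9-fold and *Sord*, sorbitol dehydrogenase, 11.8-fold. Shared enzymes of glycolysis fell too, with *Tpi1* at 6.17-fold, *Gpi1* at 2.77-fold and *Eno1* at 2.65-fold. Among the 7 rises were *Pfkfb3* (5.98-fold), the lactate carrier *Slc16a1* (4.95-fold), the muscle-type pyruvate kinase *Pkm* (3.94-fold) and *Ldha* (2.0-fold). Subunits that target a phosphatase to glycogen moved apart, with *Ppp1r3g* 16.4-fold higher and *Ppp1r3c* 17.8-fold lower.

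Bile acid synthesis and hepatobiliary transport fell in 32 of 40 cases, with a median fall of 7.29-fold against 3.79-fold over all falls. *Nr0b2*, the receptor SHP that represses bile acid synthesis, fell 33.7-fold (chromosome 4, 133553376 to 133556536 of GRCm38), and its target *Cyp7a1*, the rate-limiting enzyme, fell 17.6-fold in the same libraries (chromosome 4, 6265612 to 6275633). Transporters fell on both sides of the hepatocyte, with *Slco1b2* (14.6-fold) and *Slc10a1* (7.21-fold) for uptake from blood and *Abcb11* (13.7-fold) and *Abcc2* (13.4-fold) for export into bile. *Slc51b*, a subunit of the exporter back to blood, was the only rise (11.2-fold).

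Detoxifying enzymes fell as families. Of 66 cytochrome P450 genes 44 fell and *Cyp4f17* was the only rise (4.37-fold). *Cyp4a12a* fell 26.0-fold, *Cyp2u1* 17.3-fold and *Cyp2a5* 13.1-fold, and *Cyp2e1* 5.30-fold. Glutathione transferases and related genes fell in 26 of 46 cases, with *Gstp1* at 15.8-fold and *Gsta3* at 7.68-fold, whereas *Chac1*, which breaks glutathione down, rose 79.3-fold. Glucuronosyltransferases and sulfotransferases fell in 22 of 39 cases, led by *Ugt2b35* (20.4-fold), and *Sult1e1*, which inactivates estrogens, was the only rise (48.0-fold). The list of alcohol and aldehyde dehydrogenases, flavin monooxygenases and carboxylesterases had 37 falls among 54 members. It had 2 rises, *Adh7* (10.8-fold) and *Nnmt* (2.02-fold), a methyltransferase outside these families. Many of these genes have near-identical neighbours that share reads, so folds of single members are uncertain.

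Amino acid and nitrogen metabolism fell broadly. Of 53 genes of amino acid breakdown 39 fell and 2 rose, with *Amt* of the glycine cleavage system at 16.9-fold and *Csad*, an enzyme of taurine synthesis, at 14.1-fold. *Tat*, the tyrosine aminotransferase that glucocorticoids induce, rose 2.54-fold. In the urea cycle list 13 of 25 members fell, among them *Cps1* (4.62-fold), *Ass1* (3.98-fold) and *Otc* (2.80-fold). *Gls2*, the liver form of glutaminase, fell 11.5-fold. Choline and one-carbon genes fell in 26 of 44 cases, including *Cth* (18.2-fold), *Mthfd1* (14.2-fold) and *Shmt1* (14.1-fold), and *Mat2a*, the extrahepatic form of methionine adenosyltransferase, rose 2.53-fold. In the tryptophan and NAD pathway 18 of 29 genes fell, with *Acmsd* (14.3-fold) and *Kynu* (13.5-fold) first, and *Nampt*, the enzyme that salvages nicotinamide, rose 11.6-fold.

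Metals, hormones and rhythm each held rises and falls of known partners. The iron exporter *Slc40a1* fell 16.8-fold and hepcidin, *Hamp*, which removes that exporter from membranes, rose 2.84-fold. Heme synthesis fell at *Uros* (9.87-fold), *Alad* (7.78-fold), *Alas2* (9.74-fold) and, less far, *Alas1* (3.01-fold). The metallothioneins *Mt2* and *Mt1* rose 32.8-fold and 23.6-fold and the zinc importer *Slc39a14* 5.88-fold. Selenium handling fell in 12 of 27 cases, with *Dio1*, the thyroid hormone deiodinase, at 8.81-fold and the plasma selenoprotein *Sepp1* at 3.13-fold. In the growth hormone axis the receptor *Ghr* fell 6.81-fold, *Igfals* 15.4-fold and *Igf1* 1.58-fold, while the IGF inhibitor *Igfbp1* rose 55.1-fold. Among 25 clock genes 6 rose and 6 fell. *Arntl* (10.1-fold) and *Nfil3* (11.3-fold) rose, and *Per3* (18.5-fold) and the outputs *Dbp* (18.2-fold) and *Tef* (4.14-fold) fell. The hour of day at which livers were taken is not given in the sources used here.

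Transcription factors followed the same division. The list of AP-1, EGR, KLF and other immediate early genes, not all of them transcription factors, had 24 rises among 50 members. Among these were *Gadd45g* (24.6-fold), *Klf6* (12.8-fold), *Myc* (12.3-fold) and *Egr1* (11-fold). Nuclear receptors fell in 14 of 40 cases and rose in 1, and the falls included the drug sensor *Nr1i3* (16.8-fold) and the bile acid receptor *Nr1h4* (7.75-fold). Liver-enriched factors fell in 14 of 36 cases. *Tbx3* fell 14.3-fold, *Foxa2* 4.79-fold, *Hnf4a* 2.26-fold and *Cebpa* 2.07-fold, whereas *Cebpb*, the form that acute phase signals use, rose 1.96-fold.

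**Figure D5:**
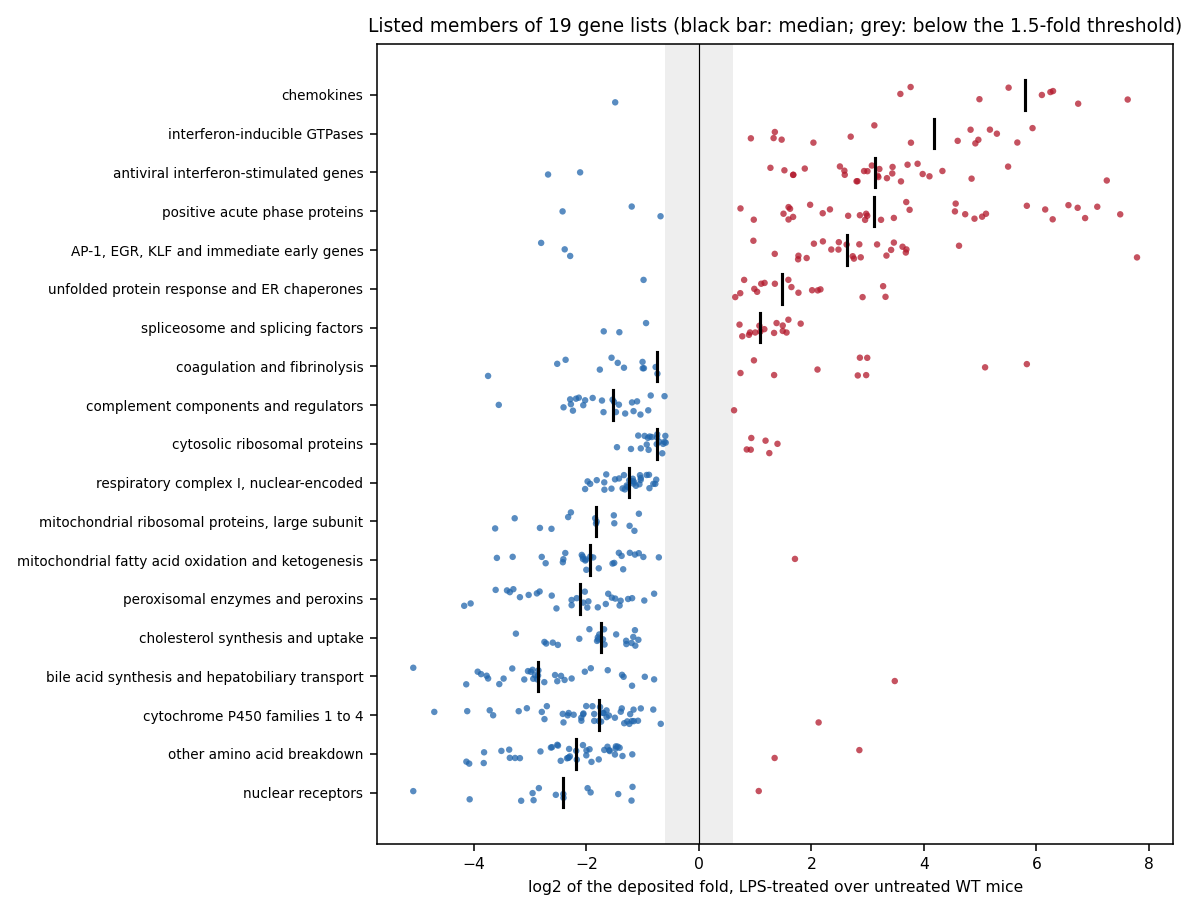
Each point is a listed member of 1 of 19 gene lists, at the log2 of its deposited fold (LPS-treated over untreated WT mice), with the median as a black bar and the range under 1.5-fold, where nothing is listed, in grey. Chemokines, GTPases and acute phase genes lie to the right of 0, and complex I, peroxisomes, bile acid genes and P450 genes lie to the left.

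Markers of other cells than hepatocytes did not move as 1 block. Of 50 genes of neutrophils and inflammatory monocytes 9 rose, with *S100a8* at 94.0-fold, *S100a9* at 34.4-fold, *Ngp* at 36.9-fold and *Chil3* at 34.6-fold, and 2 fell, the lysozymes *Lyz2* (4.57-fold) and *Lyz1* (4.27-fold). The rises include *Lcn2* (179-fold) and *Hp* (6.29-fold), which were also counted among the positive acute phase proteins. Resident macrophage genes fell in 12 of 51 cases and rose in 6. *Adgre1*, the antigen F4/80, fell 7.03-fold, *Cd5l* 8.74-fold and *Clec4f*, a marker of Kupffer cells, 3.58-fold. The 6 rises were *Cd14* (135-fold), *Ms4a6d* (5.89-fold), *Lilrb4* (4.15-fold), *Mpeg1* (2.85-fold), *Il18bp* (2.66-fold) and *Ms4a4a*, without a finite fold. Of 39 genes of endothelium and leukocyte adhesion 8 rose and 6 fell. The adhesion molecules *Sele* (41.5-fold), *Icam1* (13.7-fold) and *Selp* (9.55-fold) rose. Markers of sinusoidal endothelium were split, with *Lyve1* 11.7-fold higher and *Clec4g* 4.47-fold lower, and the VEGF receptor *Kdr* fell 10.3-fold. Of 53 lymphocyte and immunoglobulin genes 1 is listed, *Zap70*, which fell 19.1-fold. In the hepatocyte lobule 30 of 48 pericentral genes and 36 of 51 periportal genes fell, and no pericentral and 4 periportal genes rose, so falls were found at both ends. The part of a change in cell numbers in these results was not tested.

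Tissue structure showed the matrix protease inhibitor *Timp1* up 146-fold and the protease *Adamts4* up 39.4-fold, with *Mmp15*, a membrane protease, down 25.7-fold. Junction genes fell in 14 of 45 cases, among them the desmoglein *Dsg1c* (64.7-fold), the tight junction protein *Cldn3* (12-fold) and the gap junction protein *Gjb1* (9.36-fold), while the connexins *Gja4* (7.98-fold) and *Gja1* (6.62-fold) rose. *Nos2*, which makes nitric oxide, rose 62.9-fold and the arginine importer *Slc7a1* 26.1-fold, and the genes that make and recycle its cofactor tetrahydrobiopterin fell, *Gch1* by 3.75-fold, *Spr* by 4.90-fold and *Qdpr* by 5.48-fold.

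Listed genes that were neighbours on a chromosome often shared a direction. Of 572 pairs of neighbouring protein-coding genes with both listed 72.9% had the same direction, where the mix of rises and falls alone gives 56.5%. In 15 places at least 4 neighbours in a row were listed in the same direction, 14 of them lower, and most held members of 1 gene family. The longest were 8 *Serpina3* genes that rose on chromosome 12 (104146382 to 104414329 of GRCm38) and 8 *Mup* genes that fell on chromosome 4 (60658466 to 61595871). Nearby on chromosome 12, 5 *Serpina1* genes fell (103728156 to 103958975), so related serpins, inhibitors of proteases, moved in opposite directions. Others were the *Gstm* genes on chromosome 3 (107926334 to 108044894) and the *Ces1* genes on chromosome 8 (93056728 to 93337308), with 6 genes each that fell. Copies within these families share reads, and how much of the shared direction this gives was not tested.

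Larger rises were more often also listed as higher in the CypD-/- comparison, whose libraries are of another genotype and are not replicates. Of the genes that rose 32-fold or more in WT mice 76.6% were listed as higher in CypD-/- mice, and of those that rose under 2-fold 18.2% were. For falls the share was 26.9% under 2-fold, highest between 8-fold and 16-fold (64.1%), and lower again from 16-fold to 32-fold (57.8%) and at 32-fold or more (3 of 7 genes). In all, 363 rises and 887 falls were listed in the same direction there, and 12 genes in the opposite one.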

How the data were processed

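Liver RNA of WT mice was sequenced as 1 pooled library per group. The authors depleted ribosomal RNA, sequenced with 75 nt chemistry on SOLiD, and aligned full-length reads by strand to GRCm38 in color space with CLC Genomics Workbench 6.0.1 (minimum length 50%, minimum similarity 80%, unspecific match limit 10). The deposited score is the signed fold change that the authors computed between 2 libraries, negative where the LPS-treated side is lower, exported from Ingenuity Pathway Analysis. The deposited q-value is what the authors obtained from Kal's Z-test after correction for false discoveries. Both columns hold the authors' own comparison, which is the only form in which these data were at hand, and are given here as their values. Genes under 1.5-fold or above 0.05 are not in the table: the smallest fold is 1.502 and the largest q-value 0.0499. The normalization between libraries is not given in the sources used here. Folds without a finite value (8 genes) were counted by direction and left out of medians.

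Symbols were matched to RefSeq (2830 of 2844) and GENCODE M21 (2829 of 2844) on GRCm38. Members of 83 gene lists were counted as higher, lower or not listed. Transcript length is that of the longest transcript per gene. Runs were neighbours in the order of protein-coding genes. No test was run, since 1 library per group leaves no replicates and the set of genes tested is not given. The list of members and the gene lists were chosen with earlier results of these data known. Genes named were the 25 largest rises and falls, those with no finite fold, the 6 largest folds per list and direction, every listed member of lists with up to 15 of them, and genes the study names; any other gene was picked once its value was known. The alternatives were a fold of 2, a q-value of 0.001, leaving out gene models or sex-related and major urinary protein genes, counting duplicate symbols separately, and keeping genes that the CypD-/- comparison lists in the same direction. The calculations were made in Python 3.11.15 and the counting was tested on simulated data.

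Motifs were searched on both strands by these letters: STAT TTCNNNGAA, C/EBP TTGCNNAA, IRF TTCNNTTTC, AP-1 TGANTCA, CRE TGACGTCA, HNF4 CAAAGTCCA, HNF1 GTTAATNAT, DR1 AGGTCANAG, D-box TTANGTAA, E-box CACGTG, SREBP TCACNCCAC, NRF1 GCGCNTGCG, ETS ACCGGAAG, antioxidant element TGACNNNGC, CARE TGATGNAA, heat shock GAANNTTC, the TATA box as TATAAA, and CCAAT as such, beside the 10-base NF-kB consensus. AP-1, CRE and antioxidant motifs share bases, so 1 stretch can match more than 1 of them. Some genes were counted in totals and are not reported here by name.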

Additional observations from a re-analysis of the deposited data

Results flagged for a closer look

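Genes were marked where both LPS comparisons list them in opposite directions, with 1 library on each side; the difference itself was not tested. In WT and CypD-/- mice in turn, *Fgl1*, a liver-secreted fibrinogen-like protein, was 4.31-fold higher and 3.0-fold lower, *Lars2*, a mitochondrial tRNA synthetase, 3.18-fold higher and 2.67-fold lower, and *Hamp2*, a hepcidin gene, 2.47-fold higher and 3.22-fold lower. The genes that follow were lower in WT and higher in CypD-/- mice. *Cyp4a14* was 4.67-fold lower and 1.61-fold higher, and *Cyp4a10*, its neighbour in the family of fatty acid hydroxylases, 4.14-fold lower and 1.55-fold higher. *Fggy*, a carbohydrate kinase, was 4.57-fold lower and 4.41-fold higher. *Gpx1*, glutathione peroxidase, was 2.60-fold lower and 1.84-fold higher. *Saa4*, the constitutive serum amyloid, was 1.6-fold lower and 2.12-fold higher, and *Mup4*, a major urinary protein, 3.13-fold lower and 1.97-fold higher. *Fam25c* was 2.58-fold lower and 2.0-fold higher, and the gene model *Gm7866* 2.04-fold lower and 6.20-fold higher.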

How the results depend on the processing

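No paired analysis was possible because each group was 1 pooled library, and for the same reason no replicate could be left out. Leaving out gene models, or sex-related and major urinary protein genes, moved none of the 6 main results they apply to. Counting duplicate symbols separately used the same rows as the main results, so it could not differ from them. At 2-fold the median rise was 4.17-fold and the median fall 4.16-fold. With a q-value of 0.001 or less, 556 rises remained of 910, 70.6% of genes were lower, and the medians were 4.47-fold and 4.06-fold. Keeping only genes that the CypD-/- comparison lists in the same direction left 363 rises and 887 falls, 71.0% lower, with medians of 5.95-fold and 4.37-fold. Fewer genes enter under each of these by construction. The number of lists with more falls than rises was 51, and lay between 46 and 51. In that last setting 2 lists turned, translocon and coat genes (24 rises and 12 falls, then 3 and 7) and endothelial genes (8 and 6, then 2 and 4), and the ratio of median transcript length of rises over falls turned from 1.20 to 0.84; the cause was not tested. Of 19 motifs 10 were more frequent in rises, and 11 or 12 under the other window or fold. Of 390 genes that the naming rule picks and both comparisons list with finite folds, 141 folds lay within 1.5 times of each other, 245 were further apart, and 4 turned direction in CypD-/- mice: *Gpx1* (1.84-fold), *Hamp2* (3.22-fold), *Lars2* (2.67-fold) and *Saa4* (2.12-fold). The depth is unknown, and a gene of few reads can carry a large fold with a weak q-value.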

Other observations

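Genes outside the gene lists held large changes too, and those here were chosen after their values were seen. Among the rises were *Crybb3*, a crystallin (122-fold), *Adcy1*, an adenylate cyclase (75.7-fold), *Slpi*, a secreted inhibitor of leukocyte proteases (48.9-fold), *Ch25h*, which makes 25-hydroxycholesterol (41.9-fold), *Cd274*, the checkpoint ligand PD-L1 (35.7-fold), and *Lepr*, the leptin receptor (25.9-fold). Among the falls were *Slc25a48*, a mitochondrial carrier (52.6-fold), *Acsm5* (23.7-fold), the hydroxysteroid dehydrogenase *Akr1c14* (22.3-fold), *Aqp9*, the glycerol channel of hepatocytes (14.1-fold), and *Hsd3b3* (14.5-fold). Gene symbols that open with the same letters often shared a direction. All 9 listed *Gbp* genes rose, and all of the 12 *Aldh*, 10 *Akr*, 10 *Hsd*, 8 *Abhd* and 10 *Hist* genes fell. Replication-dependent histone mRNAs lack poly(A) tails and were kept by the depletion of ribosomal RNA; *Hist1h4b* fell 16.9-fold. Among 40 *Tmem* genes 35 fell, and among 83 listed *Slc* genes 59 fell and 24 rose.

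The fold of 8 genes has no finite value. *Il1r2*, the decoy receptor of IL-1 (q = 8.74e-05), *Car4* (q = 0.0202), *Fgf23* (q = 0.0486), *Ms4a4a* (q = 0.043), *AA467197* (q = 2.18e-08) and *Gm6988* (q = 0.00358) were listed as higher without a finite value, and *Gsta1* (q = 0.0315) and *Gm3787* (q = 0.0171) as lower.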
